A study of Mus musculus with 12 samples.

Results

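The genes described here encode 9 structural and structure-associated proteins of myelin, the multilayered sheath of oligodendrocyte membrane around axons. They are Mbp, Mobp, Mog, Mag, Cnp, Cldn11, Mal, Opalin and Padi2, chosen by gene symbol. All 9 were found in the deposited table of 21937 genes and passed the filter on low values, which 14634 genes passed. RNA was taken from a light-weight, myelin-enriched membrane fraction of the brains of male wild type c57Bl6/N mice aged P18, P75, 6 months and 24 months. Each age had 3 libraries (R1, R2 and R3), and no group was treated. The paper describes the 6-month libraries as made from 3 individual brains and does not say this for the other ages. The fraction was purified on sucrose gradients and holds RNA that was in or attached to myelin as well as RNA that co-purified with it.

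Myelin is built by proteins with separate duties. MBP, the myelin basic protein, zips the cytoplasmic faces of the membrane together, and MOBP is a small basic protein of the same compact layers. Their mRNAs are carried along oligodendrocyte processes and translated near the growing sheath. CNP keeps cytoplasmic channels open in non-compact myelin. MAG sits on the inner membrane facing the axon and MOG on the outermost lamella, and OPALIN is a glycosylated transmembrane protein of oligodendrocytes. Claudin-11, the product of Cldn11, forms the tight junctions between the lamellae, MAL is a proteolipid of membrane sorting, and PADI2 converts arginine to citrulline in MBP and other proteins.

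The normalized read count, the unit of the table, is the number of reads on a gene divided by a size factor of its library and is not corrected for transcript length. Between 20299052 and 27214385 reads fell on genes per library, and the reads behind Opalin, one of the lowest of the 9, numbered 485 to 1111. One library stood apart for these genes. At P18, R3 was the lowest of the 3 libraries for 9 of 9 genes. It also had the lowest share of reads on 35 other central myelin genes, 1.56% against 2.23% and 2.28%, and the highest share on 12 neuronal markers, 0.944% against 0.657% and 0.766%. The share on 12 oligodendrocyte transcription factors in R3, 0.122%, lay between those of the other P18 libraries, 0.118% and 0.126%. These are shares of all reads, of which the 9 genes took 16.2%, 22.2% and 10.3% in P18 R1, R2 and R3. A larger part for the 9 genes lowers every other share, so the order of shares can differ from that of normalized counts. At 6 months, R2 was the highest library for 9 of 9 genes and had the lowest neuronal share of its age, 0.782%. The 9 genes took 9.44% of the reads of R2, against 5.88% and 6.08% in R1 and R3, which by itself lowers the neuronal share. The part of this variation in the age differences was not tested beyond leaving out each library, and in such bulk RNA less myelin of a kind in the fraction cannot be told apart from less RNA per unit of myelin. The hemoglobin genes Hba-a1, Hba-a2, Hbb-b1 and Hbb-b2, which would mark red blood cells, were listed at 0 in all libraries. These zeros do not show that red cell RNA was absent, since Alas2 and Slc4a1 had reads. The share on the 6 red cell genes in the table was at most 0.00209%, with Alas2 and Slc4a1 lower at P75 than at P18 (log2 changes of -3.30 ± 0.21 and -3.29 ± 0.62).

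The mean normalized read count of 9 of 9 genes was highest at P18, and the share of all genes with this order was not counted. For Mobp, Mag, Opalin and Padi2 the P18 libraries overlapped those of a later age. From P18 to P75, 8 of the 9 genes fell, where 22.9% of all genes tested did, Cnp and Mbp the most, and Opalin was the gene whose change did not pass the test. From P75 to 6 months Mag and Mobp were called higher, a share near the 31.2% of all genes that were. From 6 to 24 months Cnp and Opalin fell, against 12.7% of all genes. Over the whole span from P18 to 24 months 8 of 9 were lower at the end, against 34.3% of all genes, by 4.43-fold for Cnp, while the change of Mobp did not pass the test. Changes are given as log2 differences of (normalized read count + 1), later minus earlier age, with the standard error (SE) of a limma fit over all 12 libraries, and the threshold of the test was an adjusted p of 0.1.

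**Figure D1:**
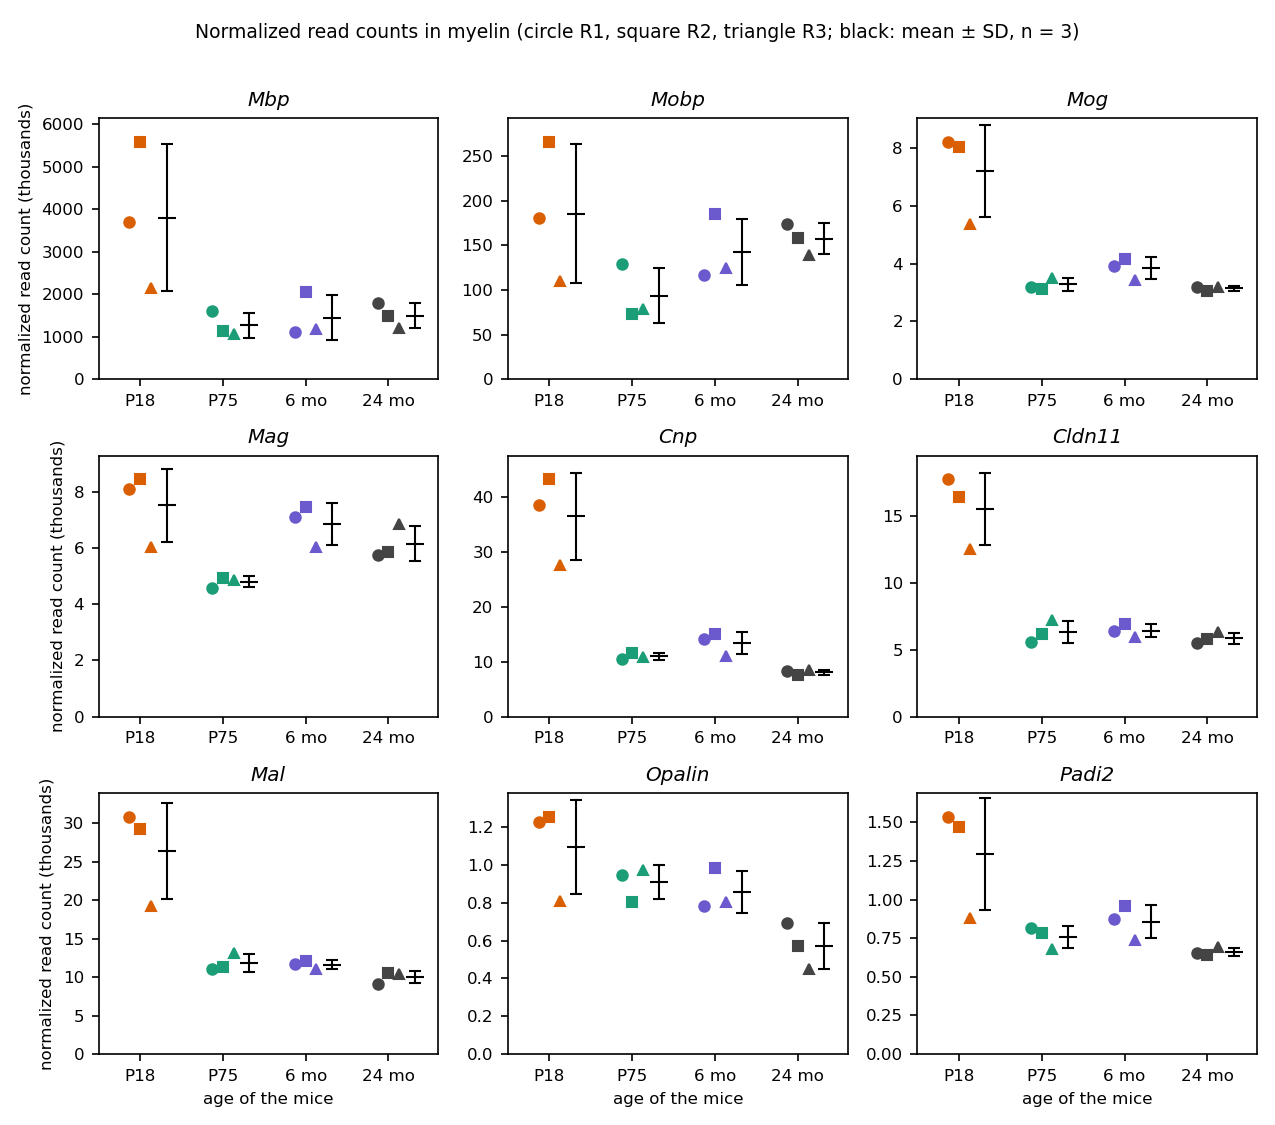
Normalized read counts of the 9 genes (vertical axes, starting at 0) against the age of the mice, with 1 point per library and the mean ± SD of the 3 libraries of an age in black. Cnp, Cldn11, Mal and Mog at P18 lie above all later libraries, and the P18 libraries of Mobp overlap the later ages.

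The stretches of genome just before the start of Mobp, Cnp and Mag are shown as examples of promoters with and without repeated copies of a motif, from genes whose age changes are described in detail. The sequences come from RefSeq (GRCm38.p6), each matched once to NCBIM37, the assembly behind mm9, and are given 5′ to 3′ on the strand of the gene with NCBIM37 coordinates. For Cnp the last bases were left out because the annotation places them in its first exon. For Mag, the entry that reaches farthest upstream of its 3 is shown. Capitals mark a match, on either strand, to ACAAAG (a core of SOX10 sites), CTGGCAC (a core of MYRF sites) or CCAAT (NF-Y).
Mobp, chr9:120058610-120058859, plus strand: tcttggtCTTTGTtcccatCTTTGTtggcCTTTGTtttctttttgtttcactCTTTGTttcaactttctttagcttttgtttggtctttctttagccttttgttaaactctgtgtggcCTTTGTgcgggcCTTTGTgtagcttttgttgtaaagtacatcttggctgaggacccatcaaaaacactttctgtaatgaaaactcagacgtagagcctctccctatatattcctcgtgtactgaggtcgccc
Cnp, chr11:100436003-100436217, plus strand: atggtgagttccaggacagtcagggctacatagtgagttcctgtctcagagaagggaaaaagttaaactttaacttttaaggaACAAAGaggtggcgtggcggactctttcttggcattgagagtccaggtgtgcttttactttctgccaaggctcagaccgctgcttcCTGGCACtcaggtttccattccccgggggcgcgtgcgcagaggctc
Mag, chr7:31699942-31700191, minus strand: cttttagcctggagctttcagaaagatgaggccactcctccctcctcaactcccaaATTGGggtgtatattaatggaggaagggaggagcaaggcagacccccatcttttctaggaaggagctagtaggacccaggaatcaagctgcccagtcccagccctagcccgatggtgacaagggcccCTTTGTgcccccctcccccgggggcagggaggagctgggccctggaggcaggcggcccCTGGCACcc
Within the 250 bases before the start, Mobp held 6 copies of ACAAAG, each on the opposite strand, and it was the 1 of 32851 mouse promoters in the table, 0.00304%, that held as many. Cnp, Mag and Opalin held 1 copy. The 8 genes with an entry have 10 promoters in the table, 3 of them those of Mag, of which 2 overlap each other. Of these 10 promoters 5 held ACAAAG, against 16.5% of all promoters. CTGGCAC was in 3 of the 10, before Cnp and Mag (4.19% of all promoters), and CCAAT in 4, before Cldn11, Padi2 and Mag (33.8%). The overlapping Mag promoters held the same copy of ACAAAG and of CTGGCAC, which is counted in both. By gene, ACAAAG was before 4 of the 8 and CTGGCAC before 2 of the 8. None of the 8 held ACAATG (another SOX10 core, in 10.7% of promoters), the E-box CAGCTG bound by OLIG2 (13%) or the TATA box TATAAA (12.4%). The capitals never overlap each other, and a match describes the letters, not a bound site. The 6 copies were singled out after the counts were seen.

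Mbp was the most abundant of the 9 genes in every library. The gene lies at chr18:82644538-82755029 on the plus strand (NCBIM37, as for the genes below) and is protein coding like the other 8. Its normalized read counts were 3686428, 5580858 and 2134344 at P18, 1598645, 1130485 and 1067179 at P75, 1114065, 2048136 and 1185829 at 6 months, and 1793465, 1476129 and 1213612 at 24 months. The 3 libraries at P18 were above all 9 later ones, and the later ages overlapped each other. Of all reads on genes Mbp took 15.1%, 20.8% and 9.47% at P18 and 4.76% to 8.48% in the later libraries. By the fit on the log2 scale Mbp was 2.83-fold higher at P18 than at P75, a log2 change of -1.50 ± 0.60 (SE, adjusted p = 0.0548). It changed by 0.16 ± 0.60 to 6 months (adjusted p = 0.835) and by 0.08 ± 0.60 from 6 to 24 months (adjusted p = 0.941), and neither change passed. The large SE came with the spread that the fit's trend over all genes set at this level, 0.92 (SD on the log2 scale). Among the libraries of Mbp itself the SD was 0.47. Mbp had the highest count of all genes, and its SE moved with the filter, to 0.50 with a mean over 100 and 1.25 with no filter. The call from P18 to P75 was lost with no filter on low values, in the fit of only the 2 ages, at a threshold of 0.05, and without P18 R1 or R2 or P75 R2 or R3, with values from -1.17 to -1.87 over all libraries left out in turn. A fit without a trend of the spread on the level, chosen after seeing the data, gave an SE of 0.33 (adjusted p = 0.00481).

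Mobp, at chr9:120058860-120090602 on the plus strand, followed another course. The normalized read counts of Mobp were 180344, 265783 and 110326 at P18, 129178, 72930.4 and 78402 at P75, 117100, 185217 and 124658 at 6 months, and 174144, 158651 and 139112 at 24 months. The ranges of P18 and P75 overlapped, since P18 R3 lay below P75 R1, and all 24-month libraries were above all P75 libraries. Mobp fell to P75 by 0.95 ± 0.31 on the log2 scale (adjusted p = 0.0208), a call lost without P18 R2 (adjusted p = 0.106). It rose by 0.62 ± 0.31 to 6 months (adjusted p = 0.0964), a call kept in 11 of 24 alternatives. It was lost with a pseudocount of 10, no filter, a threshold of 0.05, DESeq2 or no trend of the spread, and without P18 R1, P75 R2 or R3, 6 months R2 or R3 or any 24-month library, with values from 0.42 to 0.88 over all libraries left out in turn. From P75 to 24 months it was higher by 0.79 ± 0.31 (adjusted p = 0.0433), but not with no filter on low values (adjusted p = 0.102) or without P75 R2, P75 R3 or 24 months R1, each with an adjusted p of 0.116 to 0.163. Between P18 and 24 months the change was -0.15 ± 0.31 (adjusted p = 0.682).

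Relative to Mbp, Mobp was higher at each later age up to 6 months. The count of Mobp was 4.89%, 4.76% and 5.17% of the count of Mbp at P18, 8.08%, 6.45% and 7.35% at P75, 10.5%, 9.04% and 10.5% at 6 months, and 9.71%, 10.7% and 11.5% at 24 months. The libraries of P18, P75 and 6 months did not overlap in this ratio, and those of 6 and 24 months did. The ratio was steady among the libraries of P18, although Mbp itself differed by 2.61-fold among them. It does not depend on the size factor of a library. It was chosen after its values were seen and was not tested. Mobp was not alone in rising relative to Mbp, whose own count fell from P18 to P75. Between these ages the mean ratio rose without overlap for Mag (0.218% to 0.393%), Opalin (0.0312% to 0.0739%) and Padi2 (0.0364% to 0.0614%). For Mog, Mal and Cldn11 the mean ratio rose with overlapping libraries, and for Cnp it fell from 1.04% to 0.901%.

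**Figure D2:**
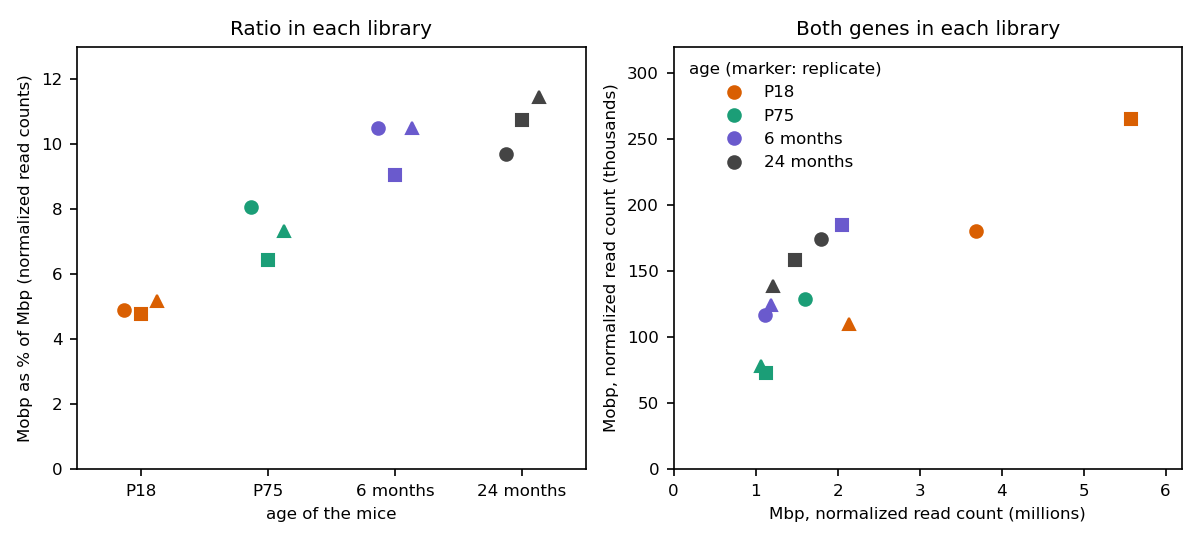
Left, the normalized read count of Mobp as a percent of that of Mbp in each library (vertical axis from 0) by age. Right, both counts in each library (Mbp horizontal, Mobp vertical), with color for the age and the replicate as marker: the P18 libraries lie along a lower line than those of 6 and 24 months, whose ratios are 9.04% to 11.5%.

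Cnp, at chr11:100436218-100453043 on the plus strand, fell the most of the 9 genes. Its normalized read counts were 38563, 43229 and 27650 at P18, 10448, 11629 and 10880 at P75, 14197, 14989 and 11111 at 6 months, and 8291, 7569.6 and 8444 at 24 months. Every P18 library was above every later one, and every 24-month library was below every other. From P18 to P75 the log2 change was -1.71 ± 0.15 (adjusted p = 7.32e-07), and 0.212% of the genes tested had a lower change. The rise to 6 months, 0.28 ± 0.15, did not pass (adjusted p = 0.123), although it did in 5 of 24 alternatives, among them DESeq2 (adjusted p = 0.0856). Cnp then fell by 0.72 ± 0.15 to 24 months (adjusted p = 0.00493), a call that held in 24 of 24 alternatives. Exons of Cnp overlap those of Dnajc7 on the opposite strand over 154 bases, and a counting without strand could have assigned reads there to either gene or to none.

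Mag, which encodes the inner adhesion protein and lies at chr7:31684202-31699851 on the minus strand, changed least between the ends of the span among the genes called. The normalized read counts of Mag were 8096, 8442 and 6037 at P18, 4570, 4941 and 4863 at P75, 7090, 7453 and 6025 at 6 months, and 5739, 5842 and 6873 at 24 months. All libraries at P75 lay below all others, and the other 3 ages overlapped. Mag fell by 0.64 ± 0.12 to P75 (adjusted p = 0.000696) and rose by 0.51 ± 0.12 to 6 months (adjusted p = 0.00239), and both calls held in 24 of 24 alternatives. The change from 6 to 24 months was -0.16 ± 0.12 (adjusted p = 0.390). From P75 to 24 months Mag was higher by 0.36 ± 0.12 (adjusted p = 0.0260), a call lost without 24 months R3 (0.27, adjusted p = 0.122). From P18 to 24 months it was -0.28 ± 0.12 (adjusted p = 0.0575), with overlapping libraries, and this call was lost in 6 of 24 alternatives. These were a threshold of 0.05, scaling all libraries to the same total (-0.20), and leaving out P18 R1 (-0.22), P18 R2 (-0.19), 24 months R1 (-0.23) or 24 months R2 (-0.25).

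Mog, for the outer surface glycoprotein, lies at chr17:37147691-37160343 on the minus strand and dropped from P18 to P75. Its counts ran from 5356 to 8212 at P18, with a median of 8030.2, and from 3050.1 to 4161 in all later libraries. The log2 change to P75 was -1.11 ± 0.13 (adjusted p = 1.09e-05). The changes to 6 months, 0.22 ± 0.13 (adjusted p = 0.162), and then to 24 months, -0.28 ± 0.13 (adjusted p = 0.141), did not pass, although the libraries of 6 and 24 months did not overlap.

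Opalin, at chr19:41136964-41151603 on the minus strand, was the gene with no call from P18 to P75. The normalized read counts of Opalin were 1226, 1254 and 809 at P18, 947, 805 and 973 at P75, 784, 986 and 807 at 6 months, and 693, 572 and 449 at 24 months. The first 3 ages overlapped and the 24-month libraries lay below all of them. The change to P75 was -0.25 ± 0.17 (adjusted p = 0.250), and without P18 R3 it was -0.45 (adjusted p = 0.0164), so that 9 of 9 genes were then called lower. Opalin fell by 0.60 ± 0.17 from 6 to 24 months (adjusted p = 0.0211) and by 0.93 ± 0.17 from P18 to 24 months (adjusted p = 0.000137).

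Cldn11, at chr3:31048868-31063246 on the plus strand, and Mal, at chr2:127458962-127482431 on the minus strand, had similar courses. Cldn11 counts were 17746, 16398 and 12534 at P18 and 5475 to 7222 later, and Mal counts were 30853, 29231 and 19263 at P18 and 9118 to 13194 later. All P18 libraries of both genes were above all later ones. Cldn11 fell by 1.29 ± 0.13 to P75 (adjusted p = 2.22e-06) and Mal by 1.13 ± 0.15 (adjusted p = 2.42e-05). No later consecutive change of either passed, the nearest being that of Mal from 6 to 24 months, -0.22 ± 0.15 (adjusted p = 0.304). Of 7 near relatives tested (claudins, Mal2 and genes of the Cmtm family), 4 rose, where 25.9% of all genes did, and 1 fell from P18 to P75, and 5 rose and 1 fell from P18 to 24 months, where 34.7% of all genes rose. Cldn10 rose by 1.21 ± 0.10 and Cldn12 by 1.24 ± 0.10 over that span (adjusted p = 2.99e-08 and 2.60e-08).

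Padi2, for the citrullinating enzyme, lies at chr4:140462259-140508501 on the plus strand and was among the lowest of the 9. Its counts were 1535, 1470 and 879 at P18, 818, 783 and 681 at P75, 876, 958 and 741 at 6 months, and 652, 642 and 691 at 24 months. P18 lay above P75 and 24 months, overlapped 6 months, and 6 months lay above 24 months. Padi2 fell by 0.73 ± 0.16 to P75 (adjusted p = 0.00195), and the change from 6 to 24 months, -0.37 ± 0.16, did not pass (adjusted p = 0.118), although it did in 8 of 24 alternatives. Of the other deiminases Padi1, Padi3, Padi4 and Padi6, 0 of 4 reached a mean count of 10. Padi6, the highest of them at P18, had 19.0, 22.6 and 30.1 there and 1.0 to 7.7 later.

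These calls have to be read against those of all genes. From P18 to P75, 22.9% of the genes tested were called lower, and 8 of the 9 genes here were. By a change of over 2-fold as well, 1.73% of all genes and 5 of the 9 were lower: Cnp, Mbp, Cldn11, Mal and Mog. The 3 libraries of P75 lay below those of P18 without overlap for 7 of 9 genes and for 22.6% of all. The median change of the 9 was -1.11, against 0.02 for all genes. Scaling every library to the same total moved the latter to 0.14 and turned the split of all calls from 3783 higher and 3354 lower to 4739 and 1827, with 8 of the 9 genes still lower.

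From P75 to 6 months 2 of 9 genes were called higher, Mag and Mobp, where 31.2% of all genes were, so the share was near the background. From 6 to 24 months 2 of 9, Cnp and Opalin, were called lower, against 12.7% of all genes, and 5 of 9 did not overlap and were lower, against 20.3%. Under scaling to the same total all genes called split into 1394 higher and 1613 lower in place of 2435 and 1852, and 4 of the 9 were lower. From P18 to 24 months 8 of 9 were called lower where 34.3% of all genes were, and 5 by over 2-fold against 3.98%. From P75 to 24 months Mobp and Mag were called higher (28.8% of all genes) and Cnp and Opalin lower (26.1%), with Mobp the 1 gene called higher without 24 months R3. These comparisons share the libraries of an age and are not independent.

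**Figure D3:**
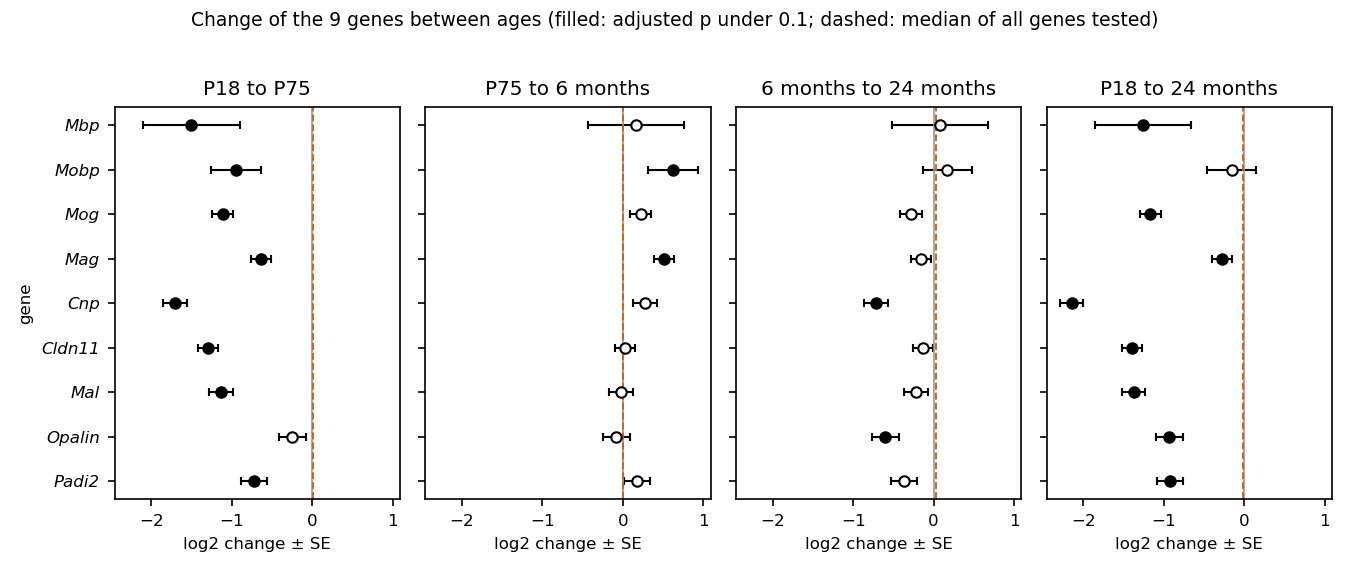
Log2 change of each gene (horizontal axes, later minus earlier age) with its SE in 4 comparisons. Filled points have an adjusted p under 0.1 and the dashed line is the median of all 14634 genes tested; in the first panel 8 filled points lie left of it.

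Levels can be compared between genes only per length, here as the normalized read count divided by the summed exon length in kilobases (GENCODE vM1). On this scale Mbp ranked 1 and Mobp 2 at all 4 ages and in all libraries, and Opalin ranked 8 and Padi2 9, each apart from its neighbours. Cnp went from rank 3 at P18, with 10025 ± 2197 per kilobase (SD, n = 3), to rank 6 at 24 months, with 2226 ± 128. The ranges of Cnp and Mal overlapped at P18, as did those of Mal and Cldn11, and of Mog and Mag. Mag moved from rank 7 to rank 5, with 3100 ± 536 at P18 and 2535 ± 258 at 24 months. Dividing by the longest transcript instead put Cnp at rank 5 and Mag at rank 6 at 24 months.

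Libraries of the same age differed most in Mbp and Mobp. The highest and lowest P18 library differed by 2.61-fold in Mbp and by 1.40-fold in Mag, the smallest difference of the 9 at that age. Of 11305 genes with a mean of at least 100, 99.7% had a smaller fold among these libraries than Mbp, and 99.4% a smaller fold than Mobp. At 6 months Mbp still differed by 1.84-fold, and at 24 months the largest difference was that of Opalin, 1.54-fold. In each age Mbp and Mobp were highest in the same library, which is R2 at P18 and 6 months and R1 at P75 and 24 months.

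**Figure D4:**
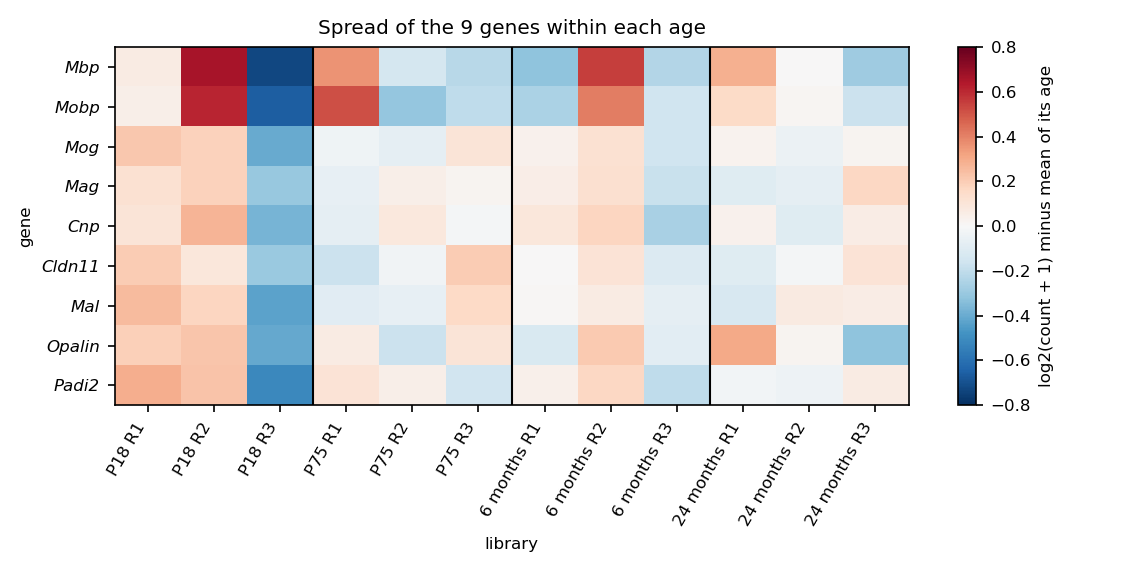
Each cell is log2(normalized read count + 1) of a gene (rows) in a library (columns) minus the mean of the 3 libraries of that age. P18 R3 is low (blue) for 9 of 9 genes and 6 months R2 high (red) for 9 of 9, with the widest spread in Mbp and Mobp.

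Genes most like each of the 9 were found by the root mean square difference of log2(normalized read count + 1), each gene centred on its mean over the 12 libraries, among 11305 genes. Mal was the nearest gene to Cldn11, and Cldn11 to Mal (0.09), and no other pair of the 9 was nearest to each other. Idh1 (0.06), Gnb4 and Abtb2 were nearest to Mog. Mobp was nearest to Trak2 (0.12), Trp53inp2 (0.16) and Fgd3 (0.22), with its nearest fellow, Mag, at place 57. The genes nearest to Mbp were Vash1 (0.22), Cyb5r3 and Sh3gl3. Cnp had Kank1 (0.22) and Ick among its nearest, Mag had Pigq (0.11), Kctd21 and Tspan15, Opalin had Nras (0.18), Dusp16 and Prex2, and Padi2 had Map6d1 (0.11), Zfp651 and Sfxn5.

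Other genes of the pathway did not all go the same way. Of 35 other genes of central myelin proteins, 16 were called higher (25.9% of all genes were) and 9 lower (22.9%) from P18 to P75. Among those lower were Sirt2, a deacetylase of non-compact myelin, by 2.66 ± 0.12 on the log2 scale, and Gsn, the actin-severing gelsolin, by 1.55 ± 0.14. Plekhb1 rose by 1.40 ± 0.33 (adjusted p = 0.00311). The median of the 35 was 0.15, and that of the 9 genes here -1.11. From P75 to 6 months 13 of the 35 rose and 4 fell (31.2% and 29.4% of all genes), with Gpr37 at 0.80 ± 0.17 and Trf, the iron carrier transferrin, at 0.79 ± 0.22. From 6 to 24 months 4 rose and 5 fell (16.6% and 12.7% of all genes), with Hapln2 at 0.72 ± 0.10.

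**Figure D5:**
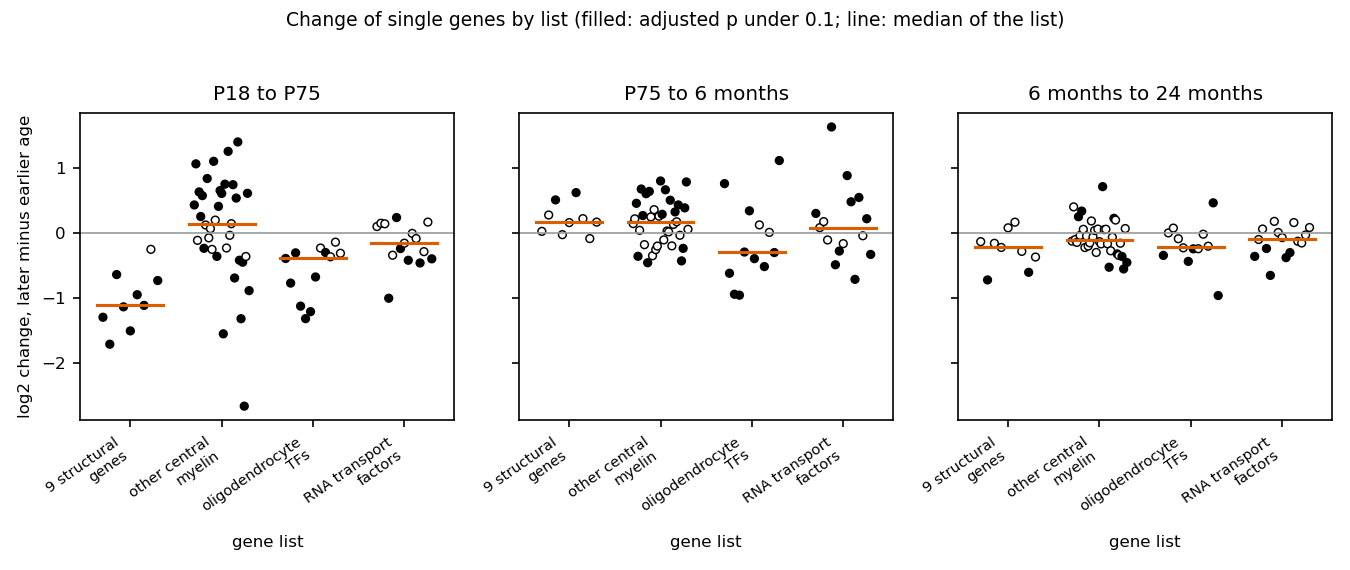
Log2 change of single genes (vertical axis) in the 9 structural genes, the 35 other central myelin genes, 12 oligodendrocyte transcription factors and 15 RNA transport factors, for the 3 consecutive comparisons. Filled points passed an adjusted p under 0.1 and lines are list medians; from P18 to P75 they are -1.11, 0.15, -0.38 and -0.15.

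Of 12 oligodendrocyte transcription factors 8 fell from P18 to P75 by limma, where 22.9% of all genes fell, and 9 by edgeR and DESeq2 on the recovered reads, and 0 rose by any of these or at an unadjusted p under 0.05. Olig2 fell by 1.31 ± 0.11 and Sox10 by 1.21 ± 0.14. Of 15 factors that carry or control Mbp and Mobp mRNA, 5 fell, a share near that of all genes, and 1 rose, against 25.9% of all genes. When libraries were scaled to the same total, 3 of the 15 fell and 4 rose. The calls of all 14634 genes tested moved the same way under that scaling, to 1827 lower and 4739 higher. Fyn, the kinase that relays axonal signals to Mbp translation, fell from 5807 ± 72.2 to 2907 ± 209 counts (SD, n = 3). The 1 that rose, named after its values were seen, was Hnrnpa2b1, which binds the transport signal of Mbp mRNA, with a log2 change of 0.24 ± 0.10 (adjusted p = 0.0623). From P75 to 6 months 6 of the 15 rose and 4 fell (31.2% and 29.4% of all genes), with log2 changes of 1.63 ± 0.25 for Hnrnpa1, a low-count gene with near-identical copies elsewhere in the genome whose value is therefore uncertain, and 0.89 ± 0.09 for Hnrnpk. Of 5 peripheral myelin genes tested, 1 rose and 1 fell from P18 to P75, shares near the 25.9% and 22.9% of all genes. Pmp2 stayed at 0.0 to 7.1 counts, near the limit of detection, while Pmp22 rose by 0.66 ± 0.17 and Egr2, a Schwann cell transcription factor also induced in neurons, fell by 1.09 ± 0.24.

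Markers of other cells moved beside these results. The share of reads on the 12 neuronal markers was 0.657% to 0.944% at P18 and 0.896% to 1.04% at P75, and 3 of 12 were called higher and 4 lower between them (25.9% and 22.9% of all genes). From P75 to 6 months 8 of the 12 were called higher and 3 lower (31.2% and 29.4% of all genes). The share of reads on the 12 was nevertheless lower at 6 months, 0.782% to 0.889%, without overlap with P75. All shares given here also depend on the part of the reads that the 9 genes took. On 10 microglial markers the share was 0.0258% to 0.0283% at P18 and 0.0634% to 0.0818% at 24 months, with 9 of 10 higher, against 34.7% of all genes. On 8 oligodendrocyte precursor markers it was 0.0153% to 0.0180% at P18 and 0.0111% to 0.0124% at P75, with 5 of 8 lower, against 22.9% of all genes, Gpr17 by 2.29 ± 0.22. Of these 8 markers 6 were then called higher and 0 lower from P75 to 6 months (31.2% and 29.4% of all genes). Astrocyte markers took 0.423% to 0.525% and endothelial markers 0.00263% to 0.00401% over all 12 libraries. Their part in the changes of the 9 genes was not tested.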

How the data were processed

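RNA of myelin-enriched brain membranes was sequenced in 12 libraries, 3 per age. Reads were aligned to mm9 and counted per gene by the authors, who scaled each library by its DESeq size factor, and the submitters' processing notes list TopHat2 2.0.8, SAMtools 0.1.19, HTSeq 0.5.4p1 and DESeq. The gene annotation and the strand setting of the counting are not given in the sources used here. The deposited signal is this normalized read count. Dividing by what 1 read is worth in a library gave whole numbers for 100% of values, so the reads per gene could be restored, 20299052 to 27214385 per library.

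Ages were compared with limma 3.58.1 (trend, empirical Bayes, R 4.3.3) on log2(count + 1), for 14634 genes whose mean reached 10, in a single fit of all libraries, with Benjamini-Hochberg adjustment over all genes tested and calls at 0.1. The script was tested on simulated data. The pseudocount of 1 lowers changes of low genes. With 3 libraries against 3, an exact test of a single value cannot give a p under 0.1. The settings varied were the pseudocount (0.5 or 10), the filter (none, or a mean over 100), fitting the 2 ages alone, a block for the replicate number, scaling to the same total with or without the 9 genes, edgeR 4.0.16 and DESeq2 1.42.0 on the recovered reads, a threshold of 0.05, each library left out, and a fit without the trend, the last chosen after seeing the data. Same-numbered libraries deviated together only between P75 and 6 months (r from 0.101 to 0.187 across genes), where the block changed no count of the 9 genes called. Values were grouped with Python 3.11.15 and pandas 2.3.3.

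Genes named are the 9, up to 4 per list with the largest change among those called, or the most abundant, and the 3 genes nearest to each of the 9. The 9 genes and the lists were chosen with earlier results of these data known. Gene positions and lengths are those of GENCODE vM1 on NCBIM37, where 95.5% of symbols were found, and promoters those of RefSeq, which gave an entry for 8 of the 9. No sequence is shown for Mbp. Some genes that these rules name are not reported here.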

Additional observations from a re-analysis of the deposited data

How the results depend on the processing

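The count of the 9 genes called stayed within 1.5 times for P18 to P75, P18 to 24 months and P75 to 24 months under every alternative. From P75 to 6 months 2 were called, but 1 with a pseudocount of 10, with no filter, at a threshold of 0.05 and in the fit without a trend (chosen after seeing the data), 4 in the fit of only the 2 ages, and 1 to 4 with a library left out. The 2 called there by DESeq2 were Mag and Cnp. From 6 to 24 months 2 were called, but 5 in the fit of only the 2 ages, 4 under either scaling to the same total and 2 to 5 with a library left out, the most without P18 R3. With the replicate number as a block 3 of the 9 were called there, Padi2 (adjusted p = 0.0737) being added, and 8, 2, 8 and 4 in the other comparisons, as without it. Over all genes from 6 to 24 months 4287 were called, 2856 at a threshold of 0.05 and 2478 to 5323 with a library left out. Scaling without the 9 genes split the calls from 6 to 24 months into 1860 higher and 2144 lower. The cause of these differences was not tested.

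Changes of the 9 genes turned sign with a library left out only where no call had been made. From P75 to 6 months the change of Cldn11 ranged from -0.057 to 0.13, with -0.026 without 6 months R2, that of Mal from -0.069 to 0.057, with 0.015 without 6 months R3, and that of Mbp from -0.11 to 0.34. From 6 to 24 months Mbp ranged from -0.079 to 0.36, with -0.034 and -0.058 without 6 months R3 or 24 months R1. From P18 to 24 months Mobp ranged from -0.48 to 0.15. The call of Mbp from P18 to P75 was lost in 7 of 24 alternatives, with adjusted p values of 0.000219 to 0.412, and that of P18 to 24 months in 11.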
